A study of Mus musculus with 14 samples.

Results

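Forelimb buds of Smad4Δ/Δc embryos were compared with wild-type forelimb buds at E10.0, when embryos have 30 somites, across the whole transcriptome. The comparison used 7 of the 14 RNA-seq samples of the series, 3 from wild-type and 4 from mutant embryos, and every gene symbol that reached 1 CPM, the read count scaled to the depth of the library, in 3 or more of these 7 samples. This rule kept 12449 of the 23284 symbols in the files. A gene could reach this level in the embryos of 1 genotype alone. Such genes, among them some under 1 CPM in every wild type, were tested because 1 genotype was high. Mutant embryos carried a Smad4 null allele (Δ), a floxed allele inactivated by CRE recombinase (Δc) and 1 copy of the PrxCreT transgene. The controls, called wild type, were Smad4+/+ and carried the same transgene. CRE was driven by the Prrx1 limb enhancer, which acts in the mesenchyme of the bud and not in its ectoderm, whereas the null allele was present in every cell. All embryos were of the NMRI strain, and both forelimb buds of 1 embryo made up 1 sample. The study's methods name littermates of the mutants, from heterozygous floxed females, as controls, whereas the cross in the labels used homozygous floxed females, which do not give Smad4+/+ embryos. Groups of the same genotypes at E10.5 (35 somites, 3 wild-type and 4 mutant embryos) served for comparison with the later stage.

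SMAD4 is the partner that receptor-activated SMAD proteins need to form the complexes by which BMP, TGFβ and activin signals control transcription. In the early limb bud, BMP signals act upstream of factors such as MSX2 and induce their own antagonist GREM1, while SHH from the posterior margin and FGFs from the apical ectodermal ridge drive outgrowth and patterning. The mesenchyme later gives rise to cartilage, tendon and connective tissue, and muscle arises from precursors that migrate in from the somites.

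Smad4 was lower in all mutants, with 163, 146 and 155 CPM in the wild-type embryos and 36.8, 44.2, 36.4 and 35.5 CPM in the mutants (log2 fold change -2.02 ± 0.08, SE, adjusted p = 2.67e-98, edgeR's exact test). CPM values are given here in the order wild-type embryos 1, 2 and 3 and mutant embryos 1, 3, 4 and 5, the numbers being those of the labels. The 10 markers of limb mesenchyme on the list used were all detected, with a summed level of 1743 to 1998 CPM in wild types and 1548 to 1771 CPM in mutants. Of these markers 4 were called lower (Prrx1, Prrx2, Twist1 and Tbx5) and none higher, and the part of this difference in the results below was not tested. Between 39030688 and 61691258 reads per embryo lay on genes. Mutants 4 and 5 stood apart from the other samples. They had 1.80% and 1.72% of their reads on the ribosomal RNA precursor Rn45s, against 0.151% to 0.456% in the 5 others, and the second principal component (27.9% of the variance at E10.0) separated them from the rest. The counts below are therefore also given without mutants 4 and 5. In that setting the mutants numbered 4 and 5 of E10.5 were left out as well. They share the estimate of dispersion, and mutant 5 of E10.5 had 8.05% of its reads on Rn45s.

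Of the 12449 genes, 410 (3.29%) were upregulated and 399 (3.21%) were downregulated in mutants at a false discovery rate of 0.1 and a minimum fold change of 1.2. The values of the 2 genotypes were separated for 331 upregulated and 361 downregulated genes, and for 17.9% of all genes tested. Most called genes were thus separated, so separation of called genes noted below describes their values and adds no support to the calls. edgeR's quasi-likelihood test called 270 genes up (2.17%) and 318 down (2.55%), among them 268 and 310 of the genes above. Without mutants 4 and 5 of both stages, which leaves 2 mutants at E10.0, 697 genes (5.60%) were higher and 1345 (10.8%) lower. These included 292 of the 410 and 340 of the 399. The balance between the directions moved with the scaling. With DESeq2's size factors in edgeR 507 genes were higher and 331 lower, and with Rn45s left out 515 were higher and 313 lower. Of the embryos left out in turn, wild-type embryo 3 changed the number of calls most, and the reason was not tested. The counts of higher and lower genes were 110 and 139 without wild-type embryo 3, 223 and 259 without mutant 5, and 419 and 233 without mutant 1. A core set of 91 upregulated and 115 downregulated genes was called by the exact test, by the quasi-likelihood test, without mutants 4 and 5 and with each of the 7 embryos left out in turn. Genes given below with their fold changes belong to this core set unless stated otherwise, and adjusted p values without a named tool are from the exact test of edgeR, adjusted by Benjamini-Hochberg.

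**Figure D1:**
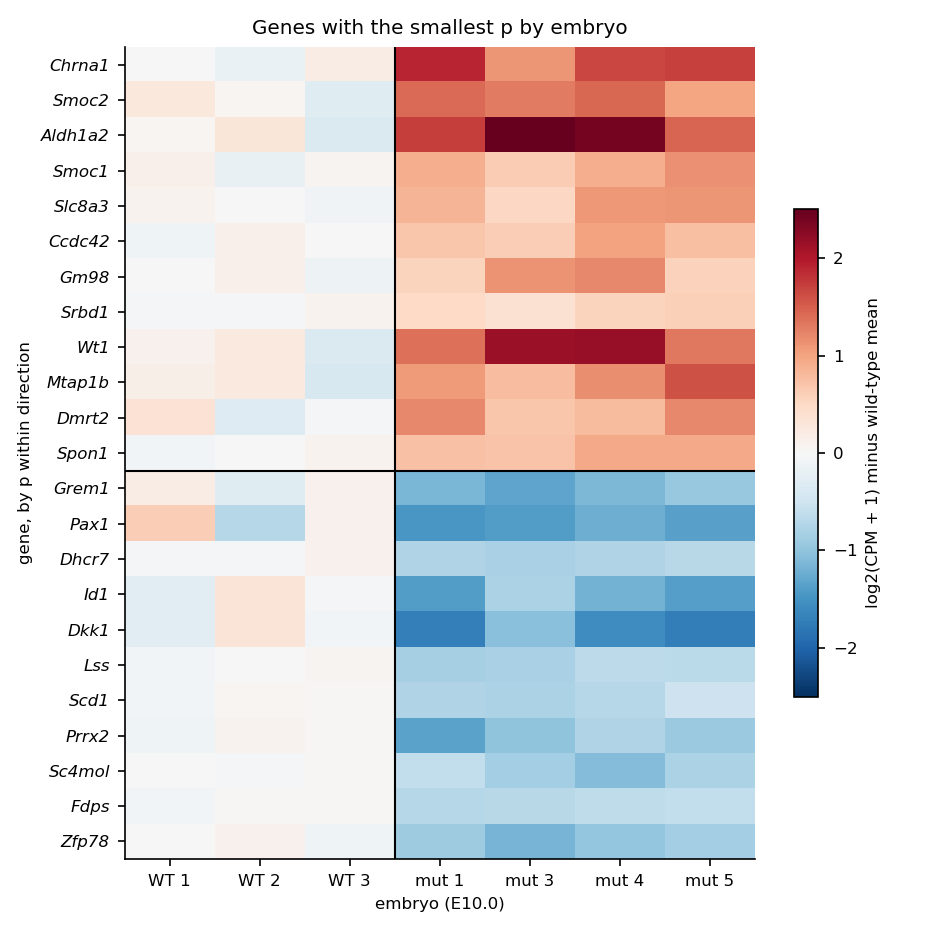
Heatmap of log2(CPM + 1) minus the wild-type mean for the 23 genes other than Smad4 with the smallest p among called genes without overlap, by embryo at E10.0 (columns, 3 wild type and 4 mutant); red is higher and blue lower. Each of the 12 upper genes is above the wild-type mean in all 4 mutants and each of the 11 lower genes below it.

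Several genes with the smallest p were no members of the BMP or sterol pathways. Slc8a3, a sodium and calcium exchanger, had 3.3, 3.01 and 2.82 CPM in the wild-type embryos and 6.26, 4.76, 7.55 and 7.64 CPM in the mutants (log2 fold change 1.10 ± 0.15, adjusted p = 3.77e-08). Mtap1b, which encodes a microtubule-associated protein of neurons, had 75.1, 80.3 and 51.3 against 144, 116, 154 and 207 CPM (log2 fold change 1.17 ± 0.21, adjusted p = 4.96e-07). Spon1, a secreted matrix protein that guides axons, was at 2.95, 3.1 and 3.41 against 5.87, 5.82, 6.97 and 6.96 CPM (log2 fold change 1.02 ± 0.15, adjusted p = 6.32e-07). These genes were picked among those without overlap between the groups, so the lowest mutant lay above the highest wild type by choice. Mtap1b was highest in mutant 5. Srbd1, a gene for an RNA-binding protein, showed a small difference with little spread, 39.5, 39.2 and 42.9 against 57.5, 53.2, 59.7 and 61.5 CPM (log2 fold change 0.52 ± 0.06, adjusted p = 3.41e-07). Among the downregulated genes outside the BMP and sterol pathways, Zfp78, a zinc finger gene, stood at 3.43, 3.85 and 3.18 against 1.41, 0.999, 1.29 and 1.47 CPM (log2 fold change -1.44 ± 0.18, adjusted p = 2.76e-10). Among the called genes with the largest change, Tbx19, a T-box factor known from the pituitary, had no read in any wild type or in mutant 4 and 111, 199 and 102 reads in mutants 1, 3 and 5. Against a floor of 3 reads over the wild-type group its mean in mutants was at least 95.7-fold higher, but it was not called by the quasi-likelihood test. Without a wild-type read, Tbx19 was tested because mutants were high.

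**Figure D2:**
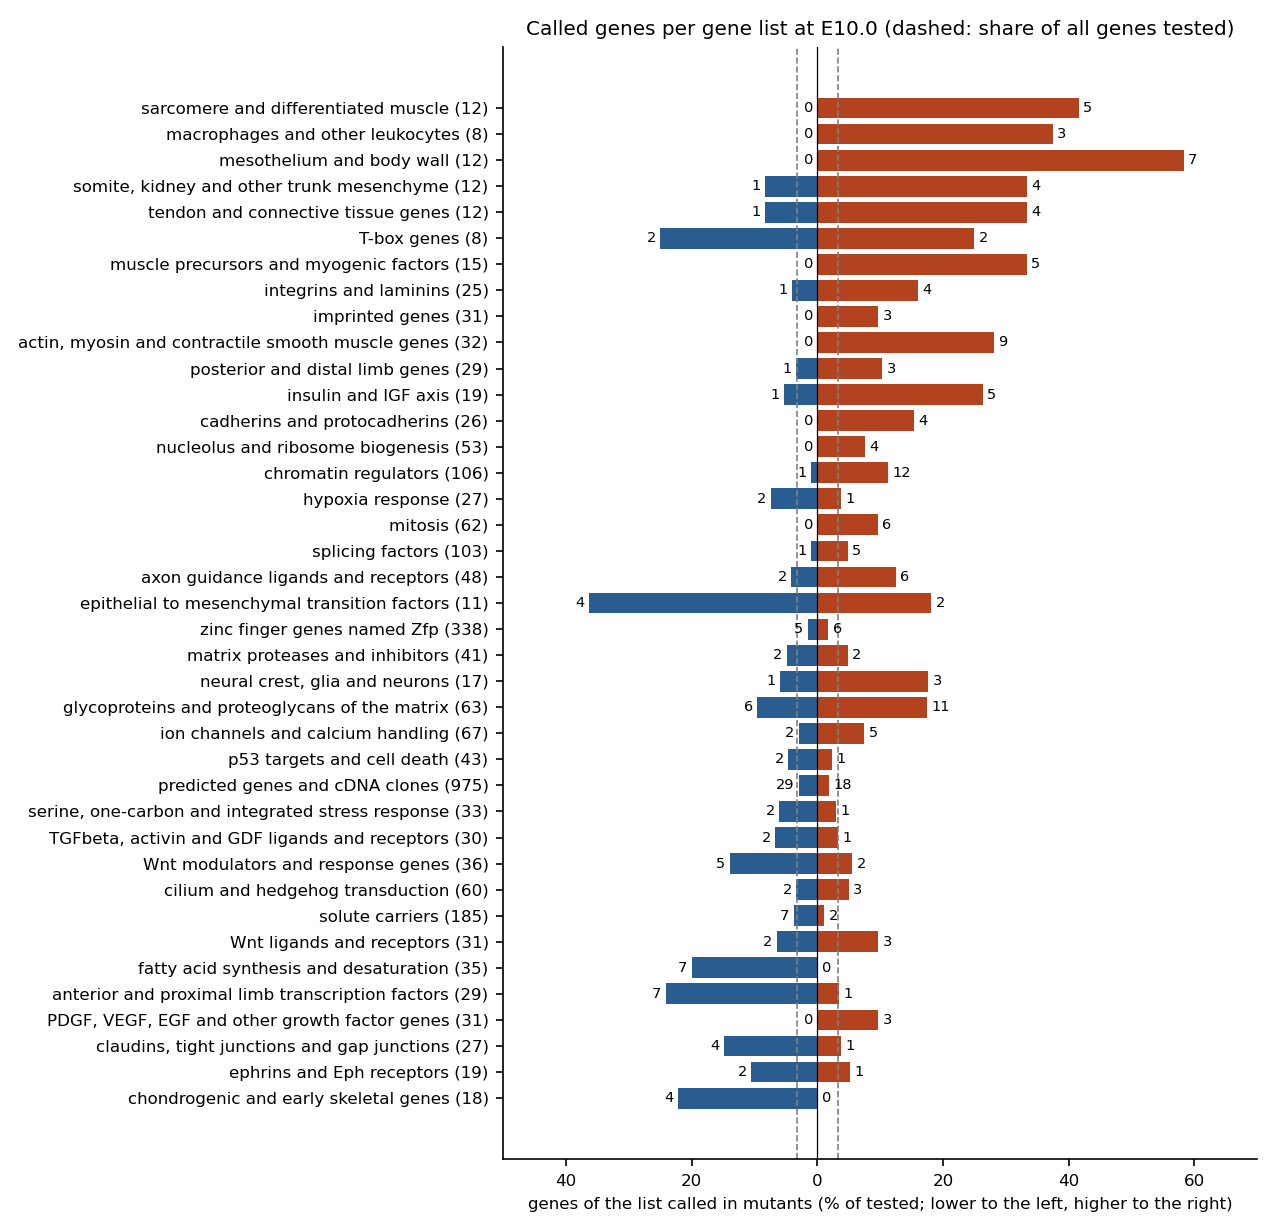
Share of each gene list called lower (left, blue) or higher (right, red) in mutants at E10.0, as % of the members tested (number in brackets), with counts at the bar ends; lists with at least 3 called members other than the sterol and BMP lists are shown, ordered by median log2 fold change. Dashed lines mark the shares over all 12449 genes, 3.29% higher and 3.21% lower.

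Several transcription factors of anterior and proximal limb mesenchyme fell. Of 29 tested transcription factors of this kind, 7 were downregulated and 1 was upregulated (27.6% called, against 6.50% of all genes), with a median log2 fold change of -0.09 against -0.02 for all genes. Prrx2, a homeobox gene of limb mesenchyme, had 79, 89.7 and 86.1 CPM in the wild-type embryos and 32.8, 41.8, 49.7 and 44.2 CPM in the mutants (log2 fold change -1.01 ± 0.14, adjusted p = 1.90e-11). Msx2, a homeobox target of BMP signals, stood at 35, 51.6 and 39.7 against 18.4, 27.7, 19.9 and 15 CPM (log2 fold change -1.05 ± 0.18, adjusted p = 1.95e-07). Lhx2, which the mesenchyme uses to respond to the ridge, was at 109.5, 118 and 129 against 72.7, 76.3, 95.4 and 98.9 CPM (log2 fold change -0.47 ± 0.11, adjusted p = 0.00197). All mutants lay below all wild types in these genes. The other downregulated members were Pax1, Alx4, Prrx1 and Tshz1. Alx4, Prrx1, Tshz1 and Emx2 were named after their values were seen and were outside the core set. Without wild-type embryo 1 the list had 4 genes lower and 2 higher. Prrx1, with 758, 615 and 742 against 656, 525, 518 and 611 CPM, overlapped between the groups and was called neither by the quasi-likelihood test nor without mutants 4 and 5. The call of Alx4 (94.2, 89.3 and 95.6 against 54.4, 77, 80.6 and 78.2 CPM) was lost without wild-type embryo 1 or 3 or mutant 1 (highest adjusted p = 0.245). Emx2, a gene of the proximal anterior bud, rose (41.4, 31.2 and 31.3 against 47.5, 49.4, 47.8 and 39.8 CPM, log2 fold change 0.41 ± 0.10, adjusted p = 0.00913), and its call was lost without wild-type embryo 2 or 3 (highest adjusted p = 0.195).

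Among the genes listed as posterior and distal, those called were higher in mutants except for Tbx2. Of 29 tested, 3 were higher and 1 lower (13.8% called, against 6.50% of all genes), with a median log2 fold change of 0.11. The SHH receptor and target Ptch1 had 47.9, 55.3 and 47.4 against 60.3, 62.3, 69.1 and 69.1 CPM (log2 fold change 0.38 ± 0.10, adjusted p = 0.0151), Hhip, which binds and restrains hedgehog ligands, 4.02, 5.68 and 5.3 against 6.67, 5.46, 8.55 and 7.62 CPM (adjusted p = 0.0901), and the distal Hox gene Hoxd13 43.1, 42.7 and 42.4 against 69.6, 45.9, 53 and 62.1 CPM (adjusted p = 0.0308). None of the 3 belonged to the core set. Ptch1 was lost without wild-type embryo 1 or 3 (highest adjusted p = 0.204), Hhip without wild-type embryo 1 or 3 or mutant 1, 4 or 5 (highest adjusted p = 0.385) and Hoxd13 without wild-type embryo 1 or 3 or mutant 1 or 5 (highest adjusted p = 0.200). Without mutants 4 and 5 the median of the list was -0.04, so its sign rested on those libraries. Tbx2, a T-box repressor of the bud margins, was the downregulated member (19.1, 21 and 18.5 against 8.41, 11.7, 14.7 and 10.5 CPM, log2 fold change -0.79 ± 0.15, adjusted p = 2.16e-05). It was the single core member of this list, although the paper counts Tbx2 among the anterior genes. Without wild-type embryo 1 or 3 the list had 0 genes higher and 1 lower. Of 25 other Hox genes 1 was called, Hoxb5 (11.4, 15.5 and 12.1 against 7.86, 10.6, 11 and 9.11 CPM, adjusted p = 0.0752), downregulated but lost without wild-type embryo 2 or 3 or mutant 1 or 5 (highest adjusted p = 0.399). Of 8 T-box genes 2 were higher and 2 lower (50.0%), Tbx2 and Tbx19 above and Tbx5 and Tbx15, both outside the core set. Tbx5, which starts forelimb outgrowth, had 108, 94.9 and 119 against 79.2, 73.8, 91.9 and 101 CPM (adjusted p = 0.0718), and the groups overlapped.

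Transcription factors of epithelial to mesenchymal transition divided. Of 11 tested, 4 fell and 2 rose (54.5% called). The SNAIL family repressor Snai2 had 27.3, 24.8 and 25.5 CPM in the wild-type embryos and 18.1, 18.9, 16.5 and 18.4 CPM in the mutants (log2 fold change -0.52 ± 0.07, adjusted p = 1.64e-05), and Snai1 37.3, 53.3 and 47.6 against 22.5, 32.3, 34.1 and 29.5 CPM (-0.64 ± 0.16, adjusted p = 0.00213). Twist1, a basic helix-loop-helix factor of mesenchyme, was downregulated too (171, 165 and 171 against 137, 141, 121 and 133 CPM, -0.34 ± 0.06, adjusted p = 0.00153). Zeb1, which acts on some of the same epithelial genes, went the other way (86, 92.1 and 81.5 against 115, 120.3, 114 and 126 CPM, 0.46 ± 0.07, adjusted p = 2.24e-05). The groups did not overlap in any of these 4 genes. Tcf4, which encodes an E protein and lies near Smad4 on chromosome 18, was the other upregulated member (named after its values were seen) and Prrx1 the other downregulated one.

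Some early skeletal genes fell. Of 18 tested chondrogenic and skeletal genes 4 fell and none rose (22.2% called, median log2 fold change -0.12). Pkdcc, a secreted kinase required for limb skeletal growth, had 257, 284 and 261 CPM in the wild-type embryos and 135, 203, 181 and 148 CPM in the mutants (log2 fold change -0.68 ± 0.13, adjusted p = 1.43e-05). The parathyroid hormone receptor gene Pth1r stood at 41.7, 43.4 and 44.2 against 24.5, 29.1, 33.9 and 27.9 CPM (-0.58 ± 0.10, adjusted p = 4.56e-05) and Runx2, the master factor of bone, at 6.89, 5.64 and 5.76 against 3.39, 4.89, 3.92 and 2.86 CPM (-0.69 ± 0.18, adjusted p = 0.00873). These 3 were separated between the genotypes in every embryo. The groups overlapped in Col9a1, a cartilage collagen with 38.6, 18.3 and 34.4 against 22.5, 19, 21.5 and 24 CPM, and its call was lost without wild-type embryo 1 or 3 or mutant 3 (highest adjusted p = 0.446). The tendon and connective tissue list went mostly upward, with 4 of 12 higher and 1 lower (41.7% called, median 0.35). Lum, a small proteoglycan of fibrous tissue, had 1.62, 1.34 and 1.8 against 5.76, 2.56, 3.18 and 3.72 CPM (log2 fold change 1.27 ± 0.27, adjusted p = 6.45e-05) and Thbs4 0.597, 0.570 and 0.339 against 2.03, 1.33, 1.34 and 0.805 CPM (1.46 ± 0.35, adjusted p = 0.00136), while its relative Thbs2 fell (4.59, 3.61 and 4.41 against 1.85, 1.81, 2.39 and 2.32 CPM, -1.01 ± 0.19, adjusted p = 6.09e-05). Thbs4 rested on 34, 29 and 16 reads in the wild types and 124, 80, 51 and 34 reads in the mutants. It was under 1 CPM in every wild type, so it was tested because the mutants were high. The other members called higher, Osr2 and Tnc, overlapped between the groups, and without wild-type embryo 3 the list had 2 genes higher and 1 lower.

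Modulators and response genes of Wnt signals were called in both directions. Of 36 on the list 5 fell and 2 rose (19.4% called). Dkk1, an inhibitor of Wnt coreceptors, had 12.4, 19.2 and 14.5 CPM in the wild-type embryos and 3.94, 6.81, 4.47 and 3.88 CPM in the mutants (log2 fold change -1.68 ± 0.21, adjusted p = 1.99e-13). Rspo4, a secreted Wnt enhancer, was at 86, 80.5 and 75 against 39.1, 62.2, 60.3 and 52.2 CPM (-0.59 ± 0.13, adjusted p = 0.000424), and Shisa3, which retains Wnt and FGF receptors in the cell, rose (6.48, 7.39 and 6.06 against 12.3, 14.3, 12.5 and 8.43 CPM, 0.84 ± 0.17, adjusted p = 0.000253). Thus genes for an inhibitor and for an enhancer of Wnt signals were both lower in all mutants. The other downregulated members, outside the core set, were Sfrp2, Wif1 and Notum, which inhibit Wnt signals as well, and Wif1 (13.9, 11.4 and 12.9 against 10.4, 8.47, 9.0 and 11.1 CPM) lost its call without wild-type embryo 1 or 3 or mutant 3 (highest adjusted p = 0.234). The other upregulated member was Sfrp1, for an inhibitor of the same family as Sfrp2, whose groups overlapped and which the quasi-likelihood test did not call. Sfrp1, Sfrp2 and Notum were named after their values were seen. Without wild-type embryo 3 the list had 2 genes lower and 1 higher, without mutant 1 it had 3 in each direction, and without mutant 5 or wild-type embryo 1 it had 3 lower and 2 higher. Of 31 Wnt ligands and receptors 3 were higher and 2 lower (16.1%). In this list Fzd10, a Wnt receptor gene, was the single member of the core set (94.1, 98.3 and 95.3 against 77.9, 79.1, 76.5 and 69.6 CPM, -0.34 ± 0.07, adjusted p = 0.00372). Without wild-type embryo 3 it was the single call of the list, and without mutant 1 or wild-type embryo 1 the list had 1 gene called in each direction.

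In the insulin and IGF axis 5 of 19 genes were higher and 1 lower (31.6% called). Pappa2, a protease that frees IGF from its binding proteins, had 1.76, 2.16 and 1.57 CPM in the wild-type embryos and 3.79, 3.53, 3.71 and 5.11 CPM in the mutants (log2 fold change 1.14 ± 0.21, adjusted p = 3.98e-05), and the binding protein gene Igfbp4 fell (593, 568 and 570.2 against 422, 499.8, 504 and 424 CPM, -0.32 ± 0.07, adjusted p = 0.00923). Igfbp3, which encodes another binding protein, was higher (50.9, 50.3 and 46.2 against 62.3, 59.3, 74.6 and 71.5 CPM, adjusted p = 0.00569), a call lost without wild-type embryo 3 (highest adjusted p = 0.115). The list had 2 genes higher without wild-type embryo 3 and 3 without mutant 5. Axon guidance genes, which also act in vessels and mesenchyme, gave 6 higher and 2 lower of 48 (16.7%). Ntn1, for the ligand netrin 1, had 43.4, 29.3 and 34.1 against 50.0, 45.6, 55.5 and 58.8 CPM (0.56 ± 0.12, adjusted p = 0.000290), whereas Unc5b, for a receptor of netrins, had 114, 122 and 114 against 77.3, 85.4, 92.8 and 84.1 CPM (-0.46 ± 0.08, adjusted p = 3.04e-05). Ligand and receptor moved in opposite directions, and the groups overlapped in neither gene. The list had 3 higher and 1 lower without wild-type embryo 3, and without mutants 4 and 5 it had 6 higher and 8 lower. Of 30 TGFβ, activin and GDF ligands and receptors 1 was higher and 2 were lower. Mstn, which encodes the muscle growth inhibitor myostatin, rose at low level (0.984, 0.413 and 0.657 against 1.95, 1.05, 1.79 and 1.7 CPM, 1.23 ± 0.31, adjusted p = 0.00185), and Fstl1 and Pmepa1, for an extracellular antagonist and a membrane inhibitor of the pathway, were called lower but not without wild-type embryo 3, and without wild-type embryo 1 the list had 1 gene lower. Mstn was under 1 CPM in every wild type, so it was tested because the mutants were high. Core genes also stood in small families. Wisp1, a gene for a secreted matricellular protein, rose (9.93, 8.78 and 7.56 against 14.2, 14.6, 13.4 and 11.1 CPM, 0.60 ± 0.12, adjusted p = 0.00124) as 1 of 2 higher among 19 Hippo targets (10.5%), and Efna3, an ephrin ligand gene, fell (4.15, 4.48 and 4.49 against 2.79, 3.08, 2.37 and 2.63 CPM, -0.68 ± 0.13, adjusted p = 0.00176) as 1 of 2 lower among 19 ephrins and Eph receptors (15.8%). In the other signalling lists the called genes were few, with 1 of 26 FGF genes (3.85%), 2 of 23 Notch genes (8.70%) and 1 of 16 retinoic acid genes (6.25%). The FGF target Dusp6 (243, 245 and 252 against 296, 257, 246 and 275 CPM, adjusted p = 0.477) and the receptor gene Fgfr1 (249, 236 and 260.3 against 225, 218, 275 and 282 CPM, adjusted p = 0.984) did not pass the test.

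Matrix genes moved both ways. Of 63 matrix glycoproteins and proteoglycans 11 were higher and 6 lower (27.0% called). Besides Smoc1 and Smoc2, whose products bind calcium and restrain BMP signals, Nid1, which links the networks of the basement membrane, rose (173, 174 and 162 against 222, 232, 251 and 263 CPM, log2 fold change 0.51 ± 0.11, adjusted p = 0.000513). Vcan, the large proteoglycan of loose mesenchyme, had 291, 319 and 177 against 427, 446, 399 and 499 CPM (adjusted p = 0.00583), and its call was lost without wild-type embryo 3 (highest adjusted p = 0.173). Nid1 and Vcan were named after their values were seen. The list had 8 higher and 1 lower without wild-type embryo 3, and without mutant 1 it had 15 higher and 3 lower. Of 30 collagens 1 was higher and 1 lower (6.67%), the former being Col12a1, a collagen at the surface of fibrils, with 16.2, 16.2 and 7.27 against 28.5, 29, 26.4 and 35.8 CPM (1.18 ± 0.27, adjusted p = 0.000146). Wild-type embryo 3 had the lowest level of Vcan and of Col12a1. Without mutants 4 and 5, 8 collagens were lower and 1 was higher. Of 26 cadherins and protocadherins 4 rose and none fell (15.4%), and among these Fat4, an atypical cadherin of planar polarity, had 47.4, 42.7 and 26.8 against 64.9, 67, 74.8 and 92.1 CPM (0.94 ± 0.19, adjusted p = 2.17e-05). With wild-type embryo 3 left out, 2 cadherins were higher. Of 25 integrins and laminins 4 were higher and 1 lower, and the lower one, the integrin gene Itgb5 (146, 152 and 145 against 113, 127, 118 and 112 CPM, -0.33 ± 0.08, adjusted p = 0.0137), was the single core gene, while without wild-type embryo 3 the list had 1 higher. Of 27 claudin and other junction genes 4 fell and 1 rose (18.5%), and Cldn10, for a claudin, had 3.46, 3.95 and 3.41 against 0.787, 1.33, 1.66 and 0.734 CPM (-1.69 ± 0.26, adjusted p = 1.57e-08). The other 3 downregulated members, Cldn3, Cldn4 and Cldn7 (the last named after its values were seen), are claudins of epithelia. Without wild-type embryo 1, 2 or 3 or mutant 1 or 5 the list had 1 gene lower, and without mutant 4 it had 2.

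Genes of the mesothelium, the lining of the body cavity beside the limb bud, rose at E10.0. Of 12 tested markers of mesothelium and body wall 7 were higher and none lower (58.3% called, median log2 fold change 0.54). Wt1, a zinc finger factor of mesothelium, had 1.55, 1.81 and 0.847 CPM in the wild-type embryos and 5.1, 9.52, 9.71 and 4.88 CPM in the mutants (log2 fold change 2.38 ± 0.41, adjusted p = 3.75e-07). Upk3b, a membrane protein of the same lining, had 0.597, 0.688 and 0.106 against 3.0, 8.01, 5.39 and 2.72 CPM (3.35 ± 0.56, adjusted p = 6.45e-07). It was under 1 CPM in every wild type, so it was tested because the mutants were high. Aldh1a2, which makes retinoic acid and is the sole called member of the retinoic acid list, had 5.22, 6.37 and 3.69 against 18.8, 33.1, 30.6 and 15.5 CPM (2.27 ± 0.28, adjusted p = 1.82e-14). In these 3 genes mutants 3 and 4 were highest and wild-type embryo 3 lowest, and the groups did not overlap. Lrrn4 (1.76, 0.786 and 1.27 against 2.74, 4.64, 4.13 and 2.13 CPM, 1.42 ± 0.28), Bnc2 (10.4, 11 and 8.98 against 16, 14.7, 14.8 and 15.4 CPM, 0.59 ± 0.12) and Podxl (62, 56.3 and 58.7 against 75.2, 94, 80.3 and 69 CPM, 0.43 ± 0.09) were above the highest wild type in every mutant, and Bnc1 and Efemp1, outside the core set, made up the 7. Bnc1, Podxl and Efemp1 were named after their values were seen. The summed level of the 16 markers in the files was 111 to 121 CPM in wild types and 134 to 190 CPM in mutants, with no marker at 0 reads in all embryos. In bulk samples more cells of a type and more RNA per cell cannot be told apart, and the share of body wall taken in dissection was not tested.

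Genes of skeletal muscle rose as well at E10.0. Of 12 tested sarcomere and muscle differentiation genes 5 were higher and none lower (41.7%), all 12 had a positive log2 fold change, and the median was 0.72. The rest of the 40 genes on this list did not reach 1 CPM in 3 samples, a level that mutants alone could supply. The common sign and the median may therefore follow in part from this rule. Of 15 muscle precursor and myogenic factor genes 5 were higher and none lower (33.3%, median 0.18), and 3 were higher without wild-type embryo 3. Myog, the myogenic factor of terminal differentiation, had 0.264, 0.0982 and 0.233 CPM in the wild-type embryos and 5.4, 2.08, 2.87 and 3.79 CPM in the mutants (log2 fold change 4.14 ± 0.76, adjusted p = 9.57e-07), which rested on 15, 5 and 11 reads in the wild types and 329, 125, 109 and 160 reads in the mutants. The cardiac and embryonic actin gene Actc1 had 0.316, 0.216 and 0.720 against 5.63, 1.81, 2.55 and 4.83 CPM (3.15 ± 0.66, adjusted p = 6.65e-06) and the embryonic myosin gene Myh3 0.105, 0.393 and 0.275 against 2.51, 0.732, 1.26 and 3.29 CPM (2.91 ± 0.66, adjusted p = 2.84e-05). Dmrt2, a factor upstream of Myf5 in the somite, had 1.23, 0.393 and 0.699 against 2.98, 1.83, 2.03 and 3.01 CPM (1.65 ± 0.30, adjusted p = 6.32e-07), and Myf5 itself 0.720, 0.589 and 0.360 against 1.9, 1.1, 1.47 and 0.899 CPM (1.26 ± 0.31, adjusted p = 0.00173). Myog, Actc1, Myh3 and Myf5 were under 1 CPM in every wild type, so they were tested because the mutants were high. Mutant 1 was highest in Myog and Actc1, and mutant 3 was lowest of the mutants in Myog, Actc1 and Myh3. Genes that mark the migrating precursors did not pass the test. Pax3 had 25.5, 29.4 and 24.3 against 24.1, 29.4, 31.5 and 27.4 CPM (adjusted p = 0.742) and Lbx1 3.85, 3.91 and 5.04 against 1.74, 3.63, 4.97 and 2.84 CPM (adjusted p = 0.488), both named after their values were seen. Chrna1, the muscle acetylcholine receptor subunit that was the most significant upregulated gene, stood at 1.65, 1.39 and 2.06 against 9.04, 4.76, 7.55 and 7.83 CPM (log2 fold change 2.10 ± 0.21, adjusted p = 1.56e-18). The 40 sarcomere genes in the files summed to 23.0 to 27.5 CPM in wild types and 33.9 to 44.4 CPM in mutants, and 1 of them had no read in any of the 7 embryos. For precursors and myogenic factors the sums were 233 to 256 and 255 to 278 CPM.

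The promoters of 3 of these muscle genes are shown because they rose together and each holds an element known from muscle promoters. Each line gives 300 bases around the transcription start (250 before and 50 after, 5′ to 3′ in the direction of the gene) from RefSeq on GRCm38.p6. The windows are chr2:73580289-73580588 (minus strand) for Chrna1, chr2:114052826-114053125 (minus strand) for Actc1 and chr1:134289754-134290053 (plus strand) for Myog. Capitals mark the E-box CAGCTG of the kind bound by MyoD in Chrna1, the SRF box in Actc1 and E-boxes of the general form CANNTG in Myog.
Chrna1: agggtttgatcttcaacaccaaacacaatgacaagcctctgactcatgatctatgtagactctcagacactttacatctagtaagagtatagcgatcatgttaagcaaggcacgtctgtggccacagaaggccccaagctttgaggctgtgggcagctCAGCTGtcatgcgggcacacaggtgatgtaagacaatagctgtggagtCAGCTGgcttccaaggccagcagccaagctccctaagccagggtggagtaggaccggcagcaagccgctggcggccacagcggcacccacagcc
Actc1: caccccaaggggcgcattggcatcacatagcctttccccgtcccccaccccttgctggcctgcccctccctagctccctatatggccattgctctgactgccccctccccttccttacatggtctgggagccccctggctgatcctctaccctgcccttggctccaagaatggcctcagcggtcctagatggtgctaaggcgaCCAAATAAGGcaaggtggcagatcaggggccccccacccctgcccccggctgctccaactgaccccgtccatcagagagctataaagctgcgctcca
Myog: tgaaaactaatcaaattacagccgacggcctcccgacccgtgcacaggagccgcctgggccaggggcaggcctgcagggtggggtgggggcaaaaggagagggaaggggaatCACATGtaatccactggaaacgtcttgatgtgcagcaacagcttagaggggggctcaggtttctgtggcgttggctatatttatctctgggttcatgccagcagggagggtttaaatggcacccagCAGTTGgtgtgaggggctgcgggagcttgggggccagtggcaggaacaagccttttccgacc
Both strands were searched. Among 11442 windows of the 8911 tested genes that matched by symbol, 15.2% held CAGCTG, 1.28% the SRF box and 62.9% CANNTG, a form that includes CAGCTG. Of the 12 called muscle and receptor genes 11 had a window, and CAGCTG was present in 2, the SRF box in 1 and CANNTG in 9 of them. Such matches describe the letters and do not show binding.

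**Figure D3:**
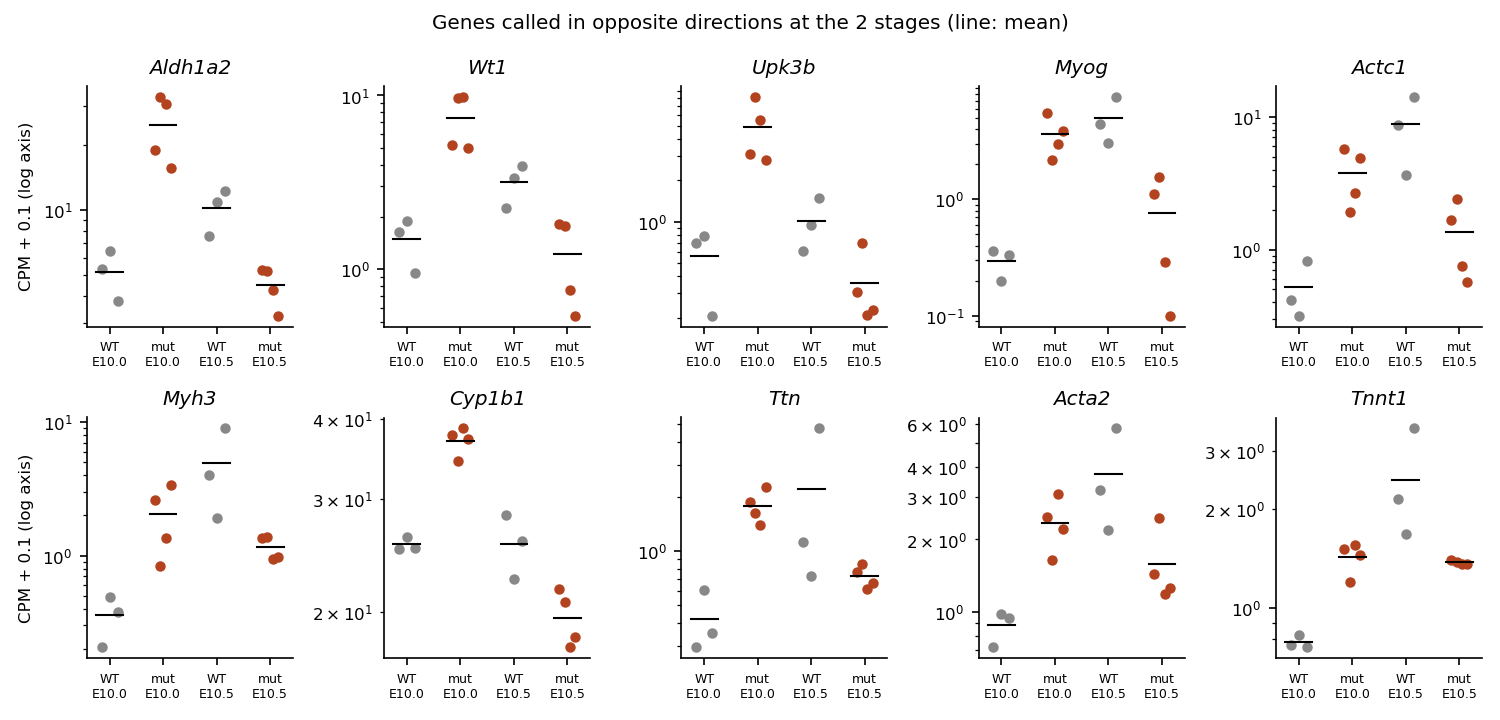
CPM + 0.1 (log axis) of each embryo for the 10 genes called in opposite directions at the 2 stages; grey points are wild-type and red points Smad4Δ/Δc embryos, and lines are means. At E10.0 the mutants lie above the wild types in all 10 genes, and at E10.5 the mutant mean lies below the wild-type mean in each.

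Several mesothelium and muscle genes were called in opposite directions at the 2 stages. At E10.5, 249 genes were higher (2.0% of those tested) and 191 lower (1.53%) in mutants. Of the 410 genes upregulated at E10.0, 103 were upregulated at E10.5 (25.1% of the earlier and 41.4% of the later calls), 10 were downregulated and 297 were not called. Of the 399 downregulated genes 77 were downregulated at E10.5 (19.3% and 40.3%) and none was upregulated there. The 2 stages come from different embryos but share the estimate of dispersion. The 10 genes of opposite call were Aldh1a2, Wt1, Upk3b, Myog, Actc1, Myh3, Ttn, Tnnt1, Acta2, the smooth muscle actin gene, and Cyp1b1, a cytochrome of retinoid and hormone metabolism. Of the called genes of mesothelium 2 of 7, of sarcomere 4 of 5 and of muscle precursors 1 of 5 were among these 10, while 1 of each list (Bnc2, Ryr2 and Dmrt2) and Chrna1 were higher at both stages. All 10 passed the test of the interaction of stage and genotype, which called 21 of 12449 genes (0.169%). They were chosen by their opposite calls, so that passing it is a description. Myog at E10.5 had 4.35, 2.91 and 7.46 against 1.01, 1.45, 0.191 and 0 CPM (log2 fold change -2.85, adjusted p = 0.000142), and its interaction was 6.88 on the log2 scale (adjusted p = 0.0150). For Aldh1a2 the E10.5 values were 7.48, 10.8 and 12.1 against 5.16, 5.15, 4.18 and 3.14 CPM (-1.20, adjusted p = 0.000163) and the interaction 3.45 (adjusted p = 0.00348). Wt1 at E10.5 had 2.15, 3.23 and 3.81 against 1.73, 1.67, 0.656 and 0.440 CPM (-1.42, adjusted p = 0.00526) and an interaction of 3.75 (adjusted p = 0.0221). In these 3 genes the lowest wild type of E10.5 lay above the highest wild type of E10.0, and the highest mutant of E10.5 below the lowest mutant of E10.0. Cyp1b1 had 25, 26.1 and 25.1 against 37.7, 34.3, 38.6 and 37.2 CPM at E10.0 and 28.2, 22.4 and 25.7 against 21.6, 20.6, 17.5 and 18.2 CPM at E10.5, and its groups overlapped at neither stage. The call of Tnnt1 at E10.0 was lost without wild-type embryo 3. The summed sarcomere level at E10.5 was 41.0 to 86.4 CPM in wild types and 31.2 to 37.4 CPM in mutants, and that of mesothelium markers 123 to 142 and 109 to 142 CPM, which overlapped. The number of interaction calls ranged from 8 without wild-type embryo 1 or 3 of E10.0 to 28 without mutant 5 of E10.0, and it was 6 without mutants 4 and 5 of both stages, 4 of them among the 21.

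Other cell types of the limb bud were followed by their markers. Of 8 tested genes of macrophages and other leukocytes 3 were higher (37.5%, median 0.62). The rest of the 25 genes on this list did not reach 1 CPM in 3 samples, a level that mutants alone could supply. The share called and the median may therefore follow in part from this rule. Cx3cr1, a chemokine receptor of macrophages, had 1.21, 0.668 and 0.805 against 2.74, 2.15, 1.87 and 2.32 CPM (1.34 ± 0.24, adjusted p = 1.36e-05), and the call of the mannose receptor gene Mrc1 (1.63, 0.589 and 0.593 against 2.39, 1.56, 2.39 and 2.86 CPM) was lost without wild-type embryo 3 (highest adjusted p = 0.120). The 25 leukocyte markers summed to 16.8 to 29.0 CPM in wild types and 29.3 to 33.5 CPM in mutants. Of 25 endothelial genes 1 was higher and 1 lower (8.0%), and of 24 genes of ectoderm and ridge 1 was lower (4.17%). In the ectodermal list 22 of the 24 genes had a negative log2 fold change, with a median of -0.17 against -0.02 for all genes, and -0.04 without mutants 4 and 5. Among the ectodermal genes Cdh1 (55.6, 53.8 and 41.3 against 49.7, 51.2, 39.5 and 37.1 CPM, adjusted p = 0.522) and Trp63 (53.8, 65.3 and 45.1 against 59.3, 61.7, 44.9 and 40.3 CPM, adjusted p = 0.823), for the epithelial cadherin and the keratinocyte factor, gave overlapping groups. The ectodermal sum was 506 to 620 CPM in wild types and 391 to 571 CPM in mutants, lowest in mutants 4 and 5. Of 17 neural crest, glial and neuronal genes 3 were higher and 1 lower (23.5%), but none was called without wild-type embryo 3. Of 12 genes of somite, kidney and other trunk mesenchyme 4 were higher and 1 lower (41.7%), with a summed level of 107 to 132 CPM in wild types and 135 to 156 CPM in mutants, and without wild-type embryo 3 the list had 1 higher and 1 lower. The somite gene Meox1 (18.4, 21 and 18.1 against 24.7, 29, 27.9 and 19.6 CPM, adjusted p = 0.0779) was lost without wild-type embryo 1 or 3 or mutant 3 or 4 (highest adjusted p = 0.422). Contractile genes gave 9 higher of 32 and none lower (28.1%). Acta2 had 0.615, 0.884 and 0.847 against 2.38, 1.55, 2.97 and 2.11 CPM (1.52 ± 0.37, adjusted p = 0.000914) and Tagln, another smooth muscle gene, 1.77, 1.83 and 1.23 against 2.54, 3.81, 4.13 and 2.18 CPM (0.97 ± 0.22, adjusted p = 0.00185). Acta2 was under 1 CPM in every wild type, so it was tested because the mutants were high. Without mutants 4 and 5 the contractile list gave 5 higher and 3 lower, and without wild-type embryo 3 it gave 5 higher.

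Of the 20 sterol synthesis genes tested 18 were lower, as were some genes of fatty acid desaturation and elongation. Of 35 fatty acid synthesis and desaturation genes 7 were lower and none higher (median log2 fold change -0.08). Fasn, Acaca and Acly, the genes for fatty acid synthase and the enzymes that supply it, were not called (named after their values were seen). Scd1, a stearoyl-CoA desaturase, had 186, 203 and 199 CPM in the wild-type embryos and 117, 112, 119 and 136 CPM in the mutants (log2 fold change -0.70 ± 0.07, adjusted p = 5.38e-13), and Scd2, its paralog, 1802, 1807 and 1776 against 1345, 1282, 1311 and 1418 CPM (-0.42 ± 0.05, adjusted p = 8.61e-06). Acot11, which hydrolyses acyl-CoA, had 12.1, 9.23 and 11.3 against 6.26, 7.22, 7.92 and 7.41 CPM (-0.60 ± 0.11, adjusted p = 0.000279) and Lpin1, a phosphatidate phosphatase, 11, 10.1 and 10.5 against 6.84, 5.14, 7.02 and 8.5 CPM (-0.62 ± 0.14, adjusted p = 0.00423). Every mutant lay below every wild type in these 4 genes. The remaining 3, Elovl1, Fads1 and Fads2, named after their values were seen, had smaller differences (log2 fold changes -0.30, -0.28 and -0.32), and none was called without wild-type embryo 3, which left 4 genes of the list. At E10.5 the log2 fold changes of Scd1 and Scd2 were -0.38 (adjusted p = 0.00104) and -0.30 (adjusted p = 0.00632). The enzymes of the sterol pathway Dhcr7, Lss and Fdft1 passed the interaction test, with larger decreases at E10.0 (-0.54, -0.59 and -0.49 on the log2 scale). Idh1, the cytosolic NADP-dependent isocitrate dehydrogenase, was the single called gene of 25 (4.00%) in the citrate cycle list (201, 189 and 196 against 161, 144, 130.3 and 141 CPM, -0.44 ± 0.08, adjusted p = 0.000326). Of 26 fatty acid oxidation genes 1 was called (3.85%). This was Cpt1c, a carnitine palmitoyltransferase of neurons, which was lower (6.36, 6.35 and 7.5 against 3.26, 3.84, 4.47 and 4.14 CPM, -0.78 ± 0.13, adjusted p = 6.09e-05). Of the 74 lists examined, 12 had no member called by edgeR's exact test, by its quasi-likelihood test or by DESeq2. In the exact test 34 of their 429 genes had an unadjusted p under 0.05, a smaller share than the 17.7% of all genes. The lists were singled out for having no call, so a small share follows in part from that choice. These 12 lists held 27 glycolysis genes, 79 respiratory chain subunits, 79 cytosolic ribosomal proteins, 26 genes of the unfolded protein response, 34 heat shock genes, 35 proteasome subunits, 58 S phase genes, 30 immediate early genes, 18 erythroid and platelet genes, 16 forkhead genes, 14 histone genes and 14 small nucleolar and microRNA genes. Without mutants 4 and 5, 10 respiratory chain and 9 ribosomal protein genes were lower, in a comparison that called 10.8% of all genes lower. Of 27 hypoxia genes 3 were called (11.1%) and of 43 p53 targets and cell death genes 3 (6.98%), against 6.50% of all genes. The hypoxia-induced Ddit4 (35.4, 28 and 28.4 against 21.2, 14.7, 22.1 and 22 CPM, -0.62 ± 0.12, adjusted p = 0.000161) and the apoptosis activator Bmf (48.7, 35.9 and 42.5 against 29.7, 31.2, 30.1 and 29.4 CPM, -0.49 ± 0.09, adjusted p = 0.000114) fell, and the death-associated kinase gene Dapk1 rose (52.6, 50.1 and 46.9 against 65.9, 67.2, 70.2 and 64.7 CPM, 0.42 ± 0.06, adjusted p = 3.09e-05). Stc1, a secreted glycoprotein induced by hypoxia, rose (6.1, 4.83 and 5.57 against 11.6, 6.52, 11.4 and 11.3 CPM, 0.89 ± 0.16, adjusted p = 5.11e-05), with mutant 3 nearest to the wild types.

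Genes of the nucleus that rose had long transcripts. Of 106 chromatin regulators 12 were higher and 1 lower (12.3%), of 62 mitosis genes 6 were higher (9.68%) and of 103 splicing factors 5 were higher and 1 lower (5.83%). Over all genes 6.50% were called, so splicing factors were called about as often as genes at large. The chromatin genes called higher had a median transcript length of 10712 bases against 5336 for the list, the mitosis genes 8840 against 3276 and the splicing factors 7442 against 3106. Mki67, the proliferation marker, had 431, 494 and 337 CPM in the wild-type embryos and 549, 587, 612 and 746 CPM in the mutants (0.57 ± 0.16, adjusted p = 0.0101), and Mll3, a histone methyltransferase, 62.8, 71.6 and 45.5 against 80.9, 83.2, 89.7 and 98.2 CPM (0.55 ± 0.16, adjusted p = 0.0103). In both, wild-type embryo 3 was lowest and mutant 5 highest, and both calls were lost without wild-type embryo 3. Without that embryo, none of the chromatin regulators, 1 mitosis gene and 2 splicing factors were higher by the exact test. Without mutant 5 the numbers were 3, 4 and 1, and without wild-type embryo 1 they were 6, 5 and 1. The mitosis gene in the core set was Ncapd2, a condensin subunit (245, 247 and 266 against 506, 238, 453 and 452 CPM, 0.71 ± 0.20, adjusted p = 0.00519), in which mutant 3 was at the wild-type level.

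**Figure D4:**
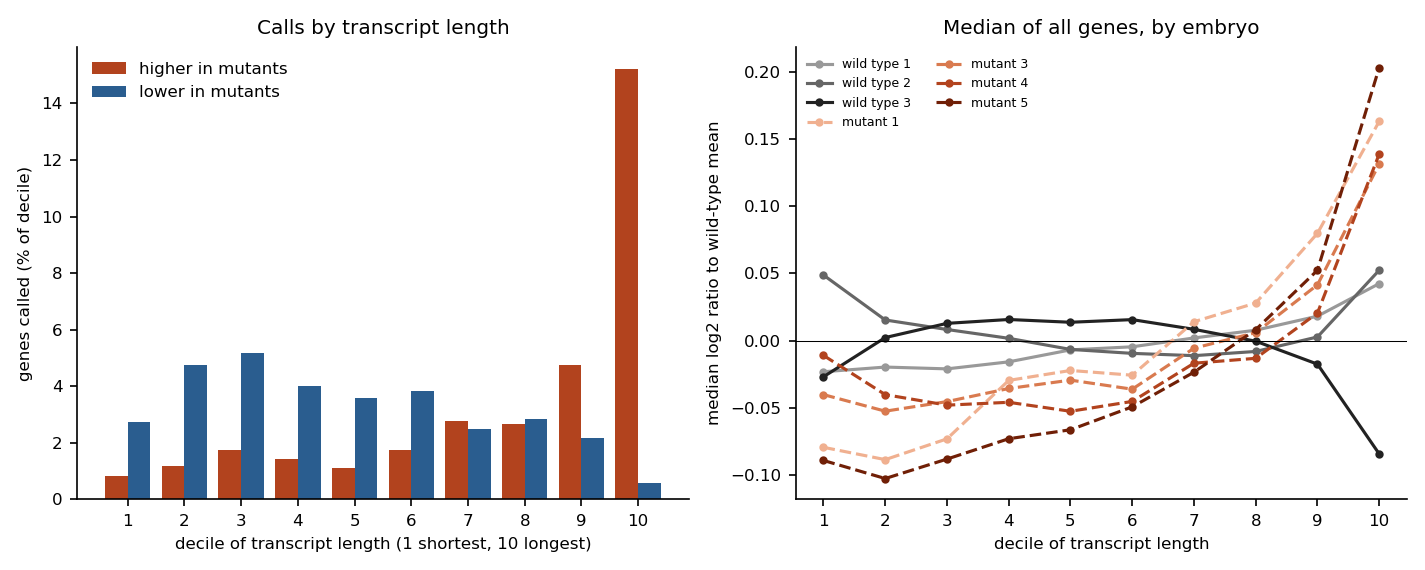
Left, genes called higher (red) and lower (blue) in mutants as % of each decile of transcript length, from the shortest (1) to the longest (10). Right, median log2 ratio of each embryo to the wild-type mean of log2(CPM + 1) by decile, with wild types as solid grey and mutants as dashed red lines; wild-type embryo 3 falls and all mutants rise in decile 10.

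Calls were spread unevenly over transcript length across all genes. Among the 12009 genes with a length in the mm9 annotation (96.5%), the median was 3151 bases for all, 6088 for upregulated and 2612 for downregulated genes. The decile of the longest transcripts, of 6537 bases or more, held 183 of the upregulated genes, 45.6% of those with a length, and 7 of the downregulated genes. In that decile 15.2% of genes were higher in mutants and 0.583% lower, while in the decile of 1828 to 2265 bases 1.75% were higher and 5.15% lower. The median log2 fold change rose from -0.06 in the shortest decile and -0.07 in the next to 0.15 in the longest. Relative to the wild-type mean, the longest decile had medians of 0.04, 0.05 and -0.08 in wild-type embryos 1, 2 and 3 and of 0.16, 0.13, 0.14 and 0.20 in the mutants. Wild-type embryo 3 lay below and all mutants lay above the other 2 wild types. Without wild-type embryo 3 the median of the longest decile was 0.11 and 20 of its genes were higher, and without mutants 4 and 5 the median was 0.16. At E10.5 it was 0.08. Of the core genes, 19 of the upregulated and none of the downregulated ones lay in the longest decile. Whether the length of transcripts, RNA quality or another property of the libraries contributed to these calls was not tested, and among the genes named above Col12a1 (11511 bases), Fat4 (16109), Vcan (12429), Mtap1b (11852) and Ttn (106824) belong to that decile.

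**Figure D5:**
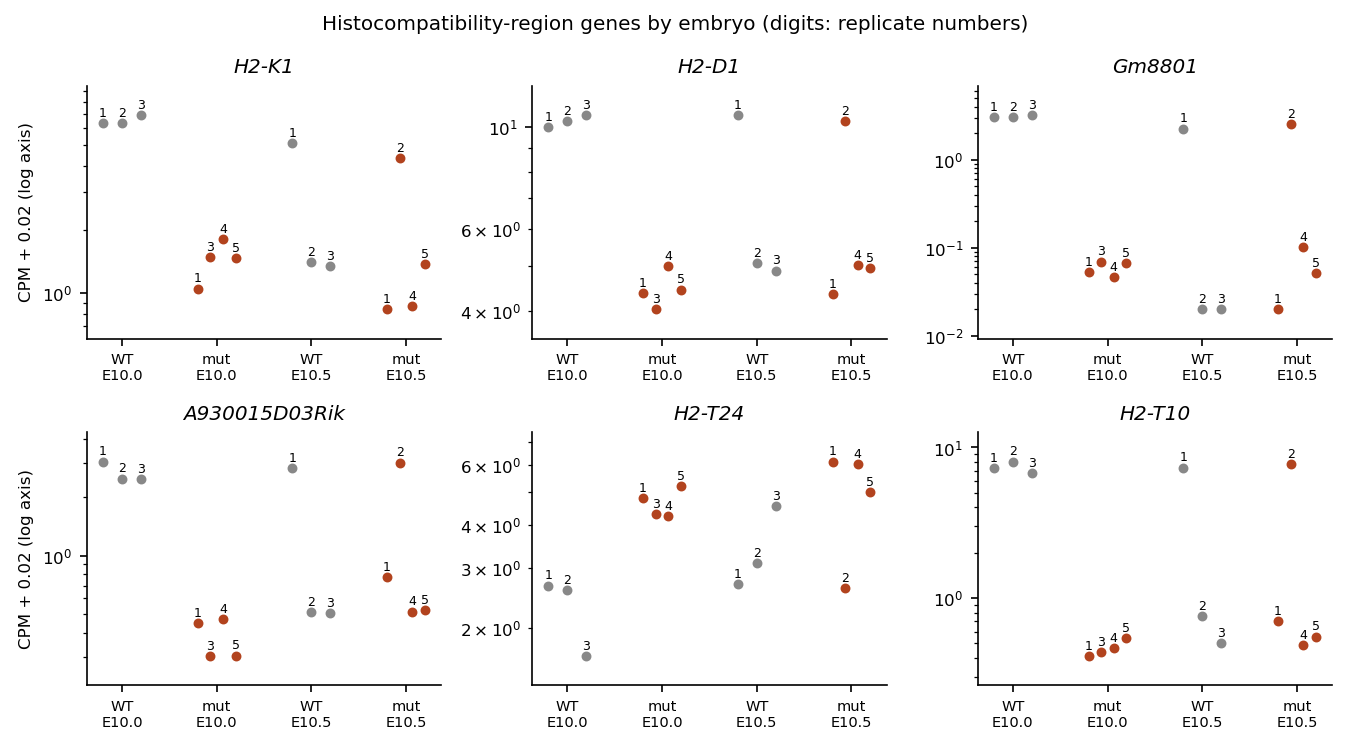
CPM + 0.02 (log axis) by embryo for 6 called genes of the histocompatibility region on chromosome 17; grey points are wild-type and red points Smad4Δ/Δc embryos, and digits are replicate numbers. At E10.5 wild type 1 and mutant 2 share the levels that the wild types have at E10.0, and in 5 of the 6 genes the 5 other embryos have those of the E10.0 mutants.

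Genes in the major histocompatibility region of chromosome 17 were lower in all mutants at E10.0 but differed between embryos of the same genotype at E10.5. Between the outermost tested H2 genes (chr17:34075766-36258410 on mm9) 73 genes were tested, of which 7 were lower and 1 higher at E10.0 and none was called at E10.5 by the exact test (1 with an unadjusted p under 0.05). The region was chosen after its values were seen. H2-T10, a nonclassical class I gene at chr17:36252821-36258410, had 7.24, 8.04 and 6.74 CPM in the wild-type embryos and 0.394, 0.416, 0.447 and 0.521 CPM in the mutants (log2 fold change -4.04 ± 1.0, adjusted p = 0.000152). At E10.5 it had 7.32, 0.738 and 0.484 CPM in wild types 1, 2 and 3 and 0.684, 7.72, 0.465 and 0.534 CPM in mutants 1, 2, 4 and 5. The classical class I genes H2-K1 (6.34, 6.33 and 6.91 against 1.03, 1.46, 1.79 and 1.44 CPM, -2.19 ± 0.52, adjusted p = 0.000593) and H2-D1 (9.94, 10.3 and 10.6 against 4.35, 4.01, 4.97 and 4.43 CPM, -1.21 ± 0.29, adjusted p = 0.000683) and the clone A930015D03Rik (3.04, 2.48 and 2.46 against 0.426, 0.283, 0.447 and 0.284 CPM, -2.88 ± 0.67, adjusted p = 9.83e-05) fell as well. Their E10.5 values were high in wild type 1 and mutant 2 and low in the 5 other embryos. H2-K1, for example, had 5.07, 1.38 and 1.33 CPM in those wild types and 0.821, 4.34, 0.848 and 1.35 CPM in the mutants. H2-T24 went the opposite way at E10.0 (2.64, 2.55 and 1.63 against 4.77, 4.28, 4.24 and 5.18 CPM, 1.02 ± 0.27, adjusted p = 0.00709), and its call was lost without wild-type embryo 3 (highest adjusted p = 0.181). Reads of class I genes can be split among near-identical copies, of which only uniquely mapped reads were counted. At E10.0 these levels coincide with the genotype in all 7 embryos, so an effect of Smad4 and a difference between the embryos in this region cannot be told apart at that stage. H2-K1 and H2-D1 were also the 2 called members of the 21 tested genes of the interferon response list (9.52%), where both were lower. Within 5 megabases of Smad4 on chromosome 18, 3 of 35 other tested genes were higher and 3 lower (17.1% called). Within 10 megabases 5 of 75 were higher and 3 lower (10.7%), against 6.50% of all genes.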

How the data were processed

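Gene-wise read counts were those the authors deposited. Per the submitters' notes and the study's methods, single-end reads of polyA RNA were aligned to mm9 with TopHat2 2.0.13, and uniquely mapped reads were counted with HTSeq without regard to strand, so overlapping and antisense genes cannot be separated. Summary lines were dropped, and the X, Y and mitochondrial chromosomes stayed in. Libraries were TMM-normalized in edgeR 4.0.16 (R 4.3.3), with tagwise dispersion (prior degrees of freedom 10) over all 14 samples. DEGs had a Benjamini-Hochberg adjusted p of at most 0.1 in the exact test and a fold change of 1.2 or more. The interaction came from the quasi-likelihood fit. Standard errors were derived from the same fit, as its absolute log2 fold change divided by the square root of its F statistic. They are printed beside the fold changes of the exact test. No 2 libraries agreed within sampling noise, and each embryo was 1 replicate. Alternatives included DESeq2 1.42.0. Scripts were tested on simulated data, on which false calls exceeded the nominal rate in the exact test but not in the quasi-likelihood test of genotype, so the counts of both are given. Transcript length was that of the longest protein-coding transcript in the mm9 annotation. Named genes were Smad4, the 12 genes in each direction with the smallest p and no overlap between groups, the 5 in each direction with the largest change, up to 4 called members per list with the smallest p (or the 2 most abundant members where fewer than 2 were called) and called genes with a called interaction. The genes examined and the 74 lists were chosen with earlier results of these data known.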

Additional observations from a re-analysis of the deposited data

Results flagged for a closer look

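In 7 of the 248 genes examined 1 mutant embryo lay far from the other 3 at E10.0, by a gap above Dixon's 95% critical share of the group's range, which chance gives in about 1 of 20 groups. Smad4 was highest in mutant 3 (44.2 CPM), Pappa2 and Setd2 (a histone methyltransferase gene) in mutant 5 (5.11 and 252 CPM) and Ppt2, a thioesterase gene, in mutant 1 (25.1 CPM). Stc1 and Ddit4 were lowest in mutant 3 (6.52 and 14.7 CPM) and Alx4 in mutant 1 (54.4 CPM). The direction of the difference from wild types was the same in all 4 mutants for each of these genes.

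The difference between genotypes differed between the stages for 17 genes called at E10.0, by edgeR's quasi-likelihood test of the interaction (log2 fold change at E10.0 minus that at E10.5). Muscle genes gave 6.88 for Myog (adjusted p = 0.0150), 5.90 for Actc1 (adjusted p = 0.0154), 5.08 for Myh3 (adjusted p = 0.0412), 4.11 for Ttn (adjusted p = 0.0859), 1.82 for Tnnt1 (adjusted p = 0.0667) and 2.78 for Acta2 (adjusted p = 0.0667). Mesothelial genes gave 5.04 for Upk3b (adjusted p = 0.0421) and 3.75 for Wt1 (adjusted p = 0.0221). Aldh1a2, of the retinoic acid list, gave 3.45 (adjusted p = 0.00348), and Cyp1b1 gave 0.92 (adjusted p = 0.0150). These 10 genes were called in opposite directions at the 2 stages. The other 7 were not called at E10.5. Among them the sterol genes Dhcr7, Lss and Fdft1 gave -0.54, -0.59 and -0.49 (adjusted p = 0.0797, adjusted p = 0.0797 and adjusted p = 0.0964), Bmf -0.66 (adjusted p = 0.0797), the antisense transcript Hoxa11as -0.62 (adjusted p = 0.0791), the predicted gene Gm98 1.04 (adjusted p = 0.0893) and Srbd1 0.46 (adjusted p = 0.0797). Hoxa11as was read without strand and cannot be separated from Hoxa11 where they overlap.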

How the results depend on the processing

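No gene called at E10.0 was called in the opposite direction under any alternative, while the number of calls moved with the libraries used. Against 809 calls (410 higher and 399 lower), there were 2042 (697 and 1345) without mutants 4 and 5 of both stages, and 498 (266 and 232) at an FDR of 0.05. The quasi-likelihood test called 270 genes higher and 318 lower. Chosen after seeing the data, the quasi-likelihood test on the 7 E10.0 samples alone called 259 (128 and 131), and without mutants 4 and 5 it called 1908 (620 and 1288). With 1 embryo left out, calls ranged from 249 (without wild-type embryo 3) to 1044 (without mutant 4), those higher from 110 to 436 and those lower from 139 to 608. The share of calls that were higher was 50.7% with TMM, 60.5% with RLE size factors, 62.2% without Rn45s, 61.8% without a filter, 57.5% by DESeq2, 34.1% without mutants 4 and 5 and 64.3% without mutant 1. The cause was not tested. Of 201 named calls, 103 were kept without wild-type embryo 3 and 192 by DESeq2. The interaction called 21 genes, 79 by DESeq2, 6 without mutants 4 and 5 and 8 to 28 with 1 embryo left out.

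Whether the replicate numbers pair the embryos cannot be settled from 2 pairs. Deviations of same-numbered wild-type and mutant embryos correlated at -0.19 and 0.18 (2 pairs), within the range for different numbers (-0.19 to 0.25). With the replicate number as a block, edgeR's quasi-likelihood test called 2036 genes (791 higher and 1245 lower), against 588 without the block. In the blocked fit the difference at E10.0 rests on the 2 pairs alone, as the other embryos have no partner. The interaction then called 0 genes by the same test, with 1071 genes at an unadjusted p under 0.05.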

Other observations

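Mid1, an X-linked gene for a microtubule-associated ubiquitin ligase, had 2 levels among the E10.0 mutants. It stood at 29.1, 22.5 and 22.3 CPM in the wild-type embryos and 23.3, 32.3, 188 and 201 CPM in the mutants (log2 fold change 2.17 ± 0.58, adjusted p = 0.00120, edgeR's exact test). At E10.5 all embryos lay between 21.2 and 26.8 CPM. The gene was high in mutants 4 and 5 of E10.0 alone among the 14 embryos, and it was not called without mutants 4 and 5 of both stages. Mid1 was named after its values were seen. Ncapd2 also had 2 levels among the mutants, but in other embryos (245, 247 and 266 against 506, 238, 453 and 452 CPM, mutant 3 being the low one).

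Of 67 ion channel and calcium handling genes, Slc8a3 among them, 5 were higher and 2 lower (10.4% called, against 6.50% of all genes). Ano1, a calcium-activated chloride channel, had 7.13, 8.06 and 6.29 against 14.3, 14.8, 12.1 and 10.6 CPM (log2 fold change 0.86 ± 0.15, adjusted p = 2.17e-05), and every mutant lay above every wild type. Of 13 genes of the MYC network 2 were lower (15.4%), and Mxd4, for a MAX partner that represses transcription, was in the core set (11.2, 10.3 and 11.7 against 7.2, 7.11, 7.87 and 8.8 CPM, -0.52 ± 0.10, adjusted p = 0.00266). Of 31 imprinted genes 3 were higher (9.68%), but none was called without wild-type embryo 3. Plagl1, an imprinted zinc finger gene, had 74.6, 75 and 72.4 against 84.8, 97.5, 103 and 92.6 CPM (0.35 ± 0.10, adjusted p = 0.0244).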
